A study of Arabidopsis thaliana with 6 samples.

Results

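Transcript levels of 50 genes for core parts of the spliceosome were compared between the wild type Col and *brr2a*-2, a mutant of the spliceosomal RNA helicase BRR2a. The 50 genes are a list of gene identifiers among the 28775 genes of the count table. The rule uses no measured value, but the list was drawn up with earlier results of these data known. They comprise 11 LSm genes, 13 Sm genes and 8 genes of the U1 small nuclear ribonucleoprotein (snRNP). A further 8 belong to the U2 snRNP and its auxiliary factors, and 5 to the complex around PRP19 (NTC). The last 5 are called the helicase group here, though only *PRP16* and *ESP3* among them are annotated as helicases. *RDM16* of this group encodes a protein of the U4/U6 particle. The direct partners of BRR2a in the U5 snRNP were not among the 50 genes. The sample labels call the mutant "cao mutant", and the paper describes it as a recessive missense allele, found after EMS mutagenesis of the *msi1*-tap1 line and then crossed into Col. Each genotype had 3 libraries of plants that were 15 days old, grown in short days and harvested 1 h before darkness, with no treatment. The labels name rosette leaves and the paper names seedlings. A single allele was used, which the paper takes to be a hypomorph, likely with a partial loss of function, so the mutant is not a model of the absence of BRR2a.

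The spliceosome is assembled anew on each intron from snRNPs and accessory proteins. U1 recognizes the 5′ splice site, U2 and the U2AF dimer recognize the branch point and the 3′ splice site, and the tri-snRNP of U4, U6 and U5 then joins. BRR2 unwinds U4 from U6, after which the NTC stabilizes the active complex and other helicases drive its rearrangements. Sm proteins form a ring around the RNAs of U1, U2, U4 and U5, and the related LSm proteins form a ring around U6 RNA or, in the cytoplasm, a ring that promotes mRNA decay.

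Ribosomal RNA was removed before sequencing, and the authors deposited counts per gene and per intron. Libraries held 18692830 to 29830638 gene counts and 561146 to 1065088 intron counts. Replicates of a genotype differed far beyond counting noise, with chi-square values of 26.1 to 105 per gene. The transcript of the mutated gene *BRR2a* was present in all libraries (128 to 157 counts per 1000000, CPM, in Col and 155 to 175 in *brr2a*-2), and a missense allele predicts no particular level. The 4 leaf markers were high in all libraries, with summed levels of 6694 to 18265 CPM in Col and 12212 to 13572 in *brr2a*-2, and 1 of them, *LHCB2.1*, was higher in *brr2a*-2 without overlap (196 to 567 CPM in Col, 719 to 804 in *brr2a*-2). Of the 3 root markers all had reads (1144 to 3497 CPM summed in Col, 2147 to 3500 in *brr2a*-2), mostly from *PYK10*, and 1 of them, *THAS1*, was lower in *brr2a*-2 without overlap (12.4 to 17.6 CPM in Col, 2.26 to 11.8 in *brr2a*-2). Of the 4 flower markers *AP3* was at 0 throughout, with 1.33 to 4.24 and 2.68 to 3.48 CPM summed over the list. All 3 seed markers had reads, at 0.605 to 38.6 CPM summed in Col and 9.80 to 101 in *brr2a*-2. The part of tissue composition in the results below was not tested, and in bulk samples fewer cells of a type and less RNA per cell cannot be told apart.

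Most genes of the U1 snRNP, the NTC and the helicase group had somewhat higher transcript levels in *brr2a*-2, whereas LSm and Sm genes were on average level between the genotypes. No single gene passed the test. All 50 genes passed the filter on low counts, with 47 to 4434 counts per library, and 40 of them had a log2 fold change above 0, with a median of 0.20. Over all 19121 genes tested, 46.1% were above 0 and the median was -0.04. In edgeR's quasi-likelihood test with Benjamini-Hochberg adjustment over all genes, 0 of the 50 were called at an adjusted p under 0.05 with at least a 2-fold change, where the background was 0% of all genes in each direction. The smallest adjusted p was 0.178 among the 50 and 0.0920 among all genes. Without adjustment, 11 of the 50 had p under 0.05 and a higher level in *brr2a*-2, against 6.93% of all genes, and 0 had a lower level, against 7.47%. In 23 of the 50 genes the *brr2a*-2 libraries all exceeded the Col libraries, against 10.8% of all genes, and in 1 gene, *LSM8*, they were all below, against 10.2%. Such genes are called higher or lower without overlap. With DESeq2, 2 of the 50 (*RDM16* and AT1G60900) had an adjusted p under 0.05 at any fold, both higher, against 1.78% of all genes higher and 1.20% lower, and 0 also reached a 2-fold change, against 1.25% higher and 0.854% lower.

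**Figure D1:**
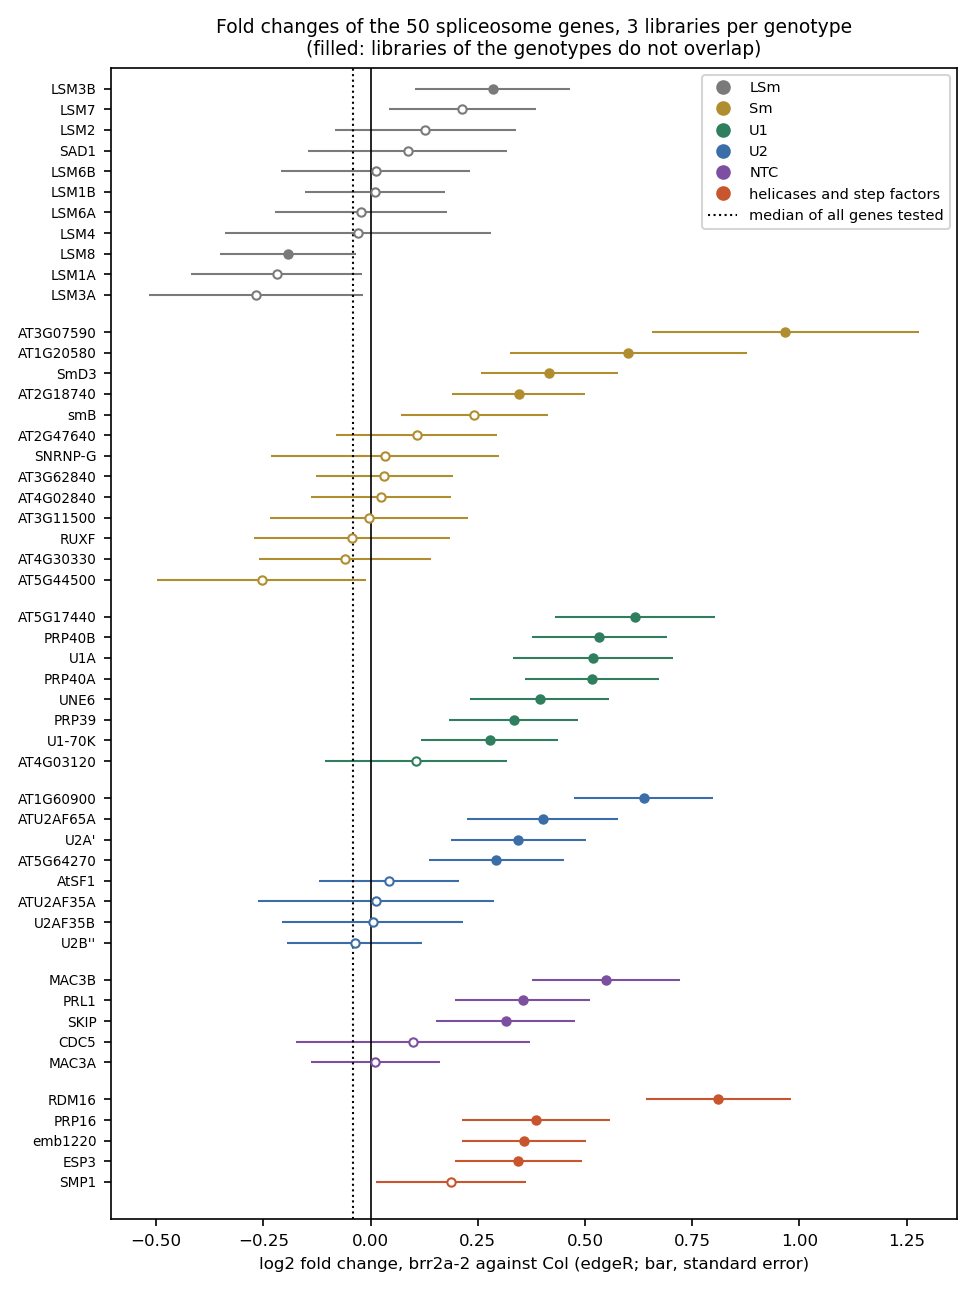
Log2 fold change (x axis) of each of the 50 genes (y axis, grouped and coloured by class), with the standard error as a bar. Filled points are the 23 genes that were higher without overlap and *LSM8*, which was lower without overlap; the dotted line is the median of all genes tested, -0.04.

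The 26 genes outside the LSm and Sm families and the 24 genes within them are set side by side here, with no test of the difference between them. Of the 26, 25 had a log2 fold change above 0 (46.1% of all genes), the median was 0.34 (-0.04), and 18 were higher without overlap (10.8%). Of the 24 LSm and Sm genes, 15 were above 0 (46.1% of all genes), the median was 0.03 (-0.04), and 5 were higher without overlap (10.8%). These counts depended in part on single libraries: leaving out 1 library at a time gave 21 to 26 of the 26 above 0 and 12 to 18 of the 24, and the unadjusted p was under 0.05 for 6 genes without *brr2a*-2 replicate 2 and for 7 without Col replicate 2, in place of 11.

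Among the U1 genes, all 8 had a log2 fold change above 0 (46.1% of all genes), with a median of 0.46. Without overlap, 7 were higher (10.8% of all genes). An unadjusted p under 0.05 in edgeR's quasi-likelihood test and a higher level were found for 5 of the 8 (6.93% of all genes). An adjusted p under 0.05 was found for 0 of them, and for 0 of all genes. The 2 genes annotated as LUC7 related encode homologs of a yeast U1 protein that takes part in the choice of 5′ splice sites. AT5G17440 had 23.7, 19.3 and 28.4 CPM in Col and 38.4, 37.5 and 33.6 in *brr2a*-2, a log2 fold change of 0.62 ± 0.19 (SE) with an adjusted p of 0.245 in edgeR. Its paralog *UNE6* had 29.9, 25.3 and 31.2 CPM in Col and 38.6, 41.03 and 33.9 in *brr2a*-2, with a log2 fold change of 0.39 ± 0.16 (SE). All *brr2a*-2 libraries of both genes lay above all Col libraries, with Col replicate 2 lowest in each. *UNE6* overlaps 2 annotated genes on the opposite strand, and its counts may include theirs because nothing says whether reads were counted by strand.

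*PRP40A* and *PRP40B* encode homologs of yeast PRP40, which connects U1 at the 5′ splice site with proteins at the branch point. *PRP40A* had 21.2, 24.4 and 23.1 CPM in Col and 34.9, 34.3 and 29.1 in *brr2a*-2, a log2 fold change of 0.52 ± 0.16 (SE). *PRP40B* had 24.7, 28.7 and 27.9 CPM in Col and 42.6, 40.5 and 34.5 in *brr2a*-2, a log2 fold change of 0.53 ± 0.16 (SE). The adjusted p in edgeR was 0.245 and 0.243, and in both genes *brr2a*-2 replicate 3 was the lowest of the mutant libraries yet above all of Col. The U1A protein binds a stem loop of U1 RNA, and *U1A* had 12.1, 15.1 and 12.1 CPM in Col and 17.3, 22.01 and 16.97 in *brr2a*-2, a log2 fold change of 0.52 ± 0.19 (SE) with an adjusted p of 0.29 in edgeR. *PRP40A* and *U1A* each overlap an annotated gene on the opposite strand.

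The most abundant U1 transcript per length was that of *U1-70K*, another protein bound directly to U1 RNA, with 30.2 ± 4.11 CPM per kb of exon in Col and 36.7 ± 1.06 in *brr2a*-2 (SD, n = 3). Its levels of 62.3, 47.9 and 52.4 CPM in Col and 66.7, 66.9 and 63.5 in *brr2a*-2 did not overlap between the genotypes, but the log2 fold change of 0.28 ± 0.16 (SE) had an unadjusted p of 0.124 in edgeR. *PRP39*, the homolog of another yeast U1 protein, had 67.2, 60.3 and 55.5 CPM in Col and 76.6, 79.2 and 74.9 in *brr2a*-2 and a log2 fold change of 0.33 ± 0.15 (SE). AT4G03120, annotated as a zinc finger protein, was the exception with overlapping libraries, at 5.47, 4.42 and 4.06 CPM in Col and 5.26, 4.39 and 5.396 in *brr2a*-2. This gene was the lowest of the U1 genes per length in Col, with 77 to 181 counts per library over both genotypes. It overlaps AT4G03130 on the opposite strand.

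**Figure D2:**
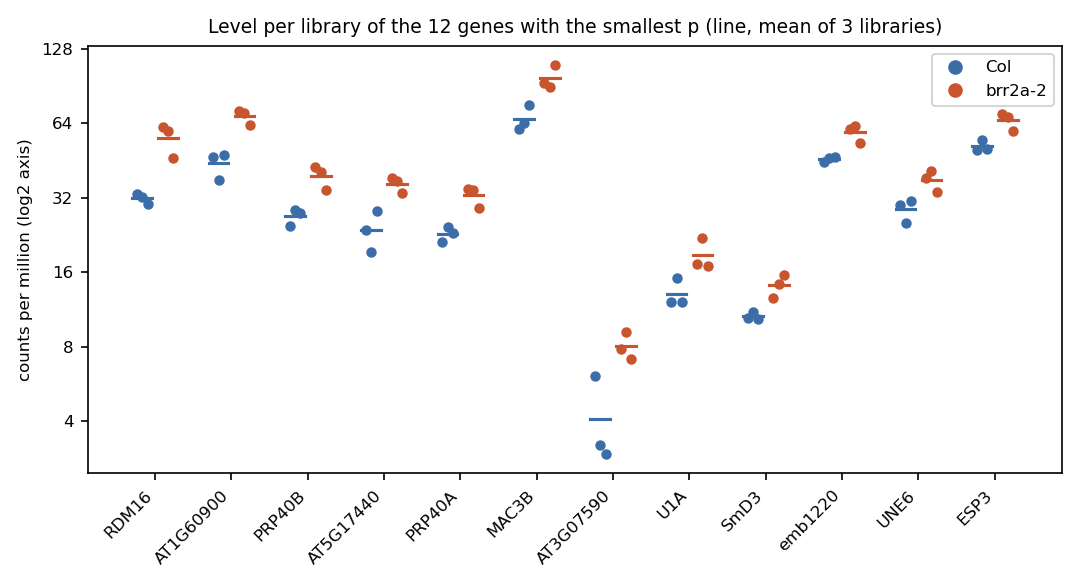
Transcript level in CPM (y axis, log2 axis) of the 12 genes with the smallest unadjusted p (x axis), 1 point per library and a line at the mean of the 3 libraries. In all 12 genes the 3 *brr2a*-2 libraries lay above the 3 Col libraries.

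U2AF is the dimer that binds the pyrimidine tract with its large subunit and the AG of the 3′ splice site with its small subunit, and the libraries of the genotypes overlapped for both small subunit genes and for neither large subunit gene. The large subunit gene AT1G60900 (chr1:22423894-22428053 in TAIR10.1, plus strand) had 46.8, 37.8 and 47.7 CPM in Col and 71.9, 70.6 and 63.2 in *brr2a*-2. The lowest mutant library was thus well above the highest Col library, and the log2 fold change was 0.64 ± 0.16 (SE), with an adjusted p of 0.21 in edgeR and 0.0264 in DESeq2. The other large subunit gene, *ATU2AF65A*, was the most abundant transcript of the U2 genes per length, with 39.96 ± 5.08 CPM per kb of exon in Col and 52.8 ± 5.78 in *brr2a*-2 (SD, n = 3). Its libraries read 76.8, 73.9 and 93.05 CPM in Col and 115, 113 and 93.8 in *brr2a*-2, so that *brr2a*-2 replicate 3 and Col replicate 3 nearly met, and the log2 fold change was 0.40 ± 0.18 (SE).

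By contrast, the small subunit genes *ATU2AF35A* and *U2AF35B* had log2 fold changes of 0.01 ± 0.28 and 0.01 ± 0.21 (SE) with overlapping libraries. *ATU2AF35A* read 23.7, 30.2 and 48.5 CPM in Col and 32.96, 31.2 and 39.1 in *brr2a*-2, and Col replicate 3 alone was above every mutant library. Without that library its log2 fold change was 0.37. Among the proteins of the U2 particle itself, *U2A'* was higher in all mutant libraries, at 16.2, 17.4 and 19.6 CPM in Col and 20.7, 22.9 and 23.9 in *brr2a*-2. *U2B''*, which binds U2 RNA together with U2A', was at 13.3, 13.5 and 13.5 CPM in Col and 11.8, 14.6 and 12.8 in *brr2a*-2, with overlap. AT5G64270, annotated as a splicing factor, had 134, 144 and 124 CPM in Col and 167, 167 and 159 in *brr2a*-2 with no overlap, and *AtSF1*, the homolog of the branch point binding protein, had a log2 fold change of 0.04 ± 0.16 (SE).

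All 5 NTC genes were above 0 (46.1% of all genes) and 3 were higher without overlap (10.8%). MAC3A and MAC3B are the 2 Arabidopsis homologs of the ubiquitin ligase PRP19, after which the complex is named. *MAC3B* had 60.6, 64.2 and 75.96 CPM in Col and 93.3, 90.2 and 110.4 in *brr2a*-2, a log2 fold change of 0.55 ± 0.17 (SE) with an adjusted p of 0.254 in edgeR. *MAC3A* had 29.1, 25.6 and 24.1 CPM in Col and 25.5, 26.98 and 26.98 in *brr2a*-2, a log2 fold change of 0.01 ± 0.15 (SE), with overlap. *SKIP*, also known for a role in the circadian clock, read 72.3, 68.1 and 85.6 CPM in Col and 92.6, 98.4 and 90.004 in *brr2a*-2, and the WD40 protein gene *PRL1* read 32.95, 27.05 and 27.9 CPM in Col and 36.5, 40.8 and 35.1 in *brr2a*-2, both higher without overlap. *SKIP* overlaps the end of an annotated gene on the same strand. *CDC5*, a MYB-related core subunit, was the most abundant per length, with 37.7 ± 12.9 CPM per kb of exon in Col and 40.3 ± 7.05 in *brr2a*-2 (SD, n = 3), and both libraries numbered 3 stood high in it, at 168 CPM in Col and 154 in *brr2a*-2.

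Among the 26 genes, *RDM16* had the largest log2 fold change and the smallest p. It encodes the homolog of PRP3, a protein of the U4/U6 particle that BRR2 unwinds, and lies at chr1:9778851-9782907 in TAIR10.1 on the plus strand. Its levels were 33.3, 32.3 and 30.2 CPM in Col and 62.1, 59.7 and 46.3 in *brr2a*-2. Col libraries differed little and *brr2a*-2 replicate 3 was the lowest mutant library, yet well above them. The log2 fold change was 0.81 ± 0.17 (SE), with an adjusted p of 0.178 in edgeR and 0.00489 in DESeq2, and leaving out single libraries gave 0.73 to 0.93. The last bases of *RDM16* overlap AT1G28070 on the same strand.

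The other genes of the helicase group were higher by less. *emb1220*, annotated as a pre-mRNA processing ribonucleoprotein binding protein, was the most abundant per length (25.04 ± 0.672 CPM per kb of exon in Col and 32.1 ± 2.59 in *brr2a*-2; SD, n = 3) and had 44.5, 46.4 and 46.8 CPM in Col and 60.5, 62.5 and 53.5 in *brr2a*-2. The helicase gene *ESP3* had 50.1, 54.98 and 50.3 CPM in Col and 69.6, 68.2 and 59.6 in *brr2a*-2. *PRP16*, whose yeast homolog remodels the spliceosome after the first step, had 83.7, 71.4 and 92.2 CPM in Col and 119, 99.9 and 105 in *brr2a*-2. In each of the 3 the mutant libraries lay above the Col libraries, with log2 fold changes of 0.36 ± 0.14, 0.34 ± 0.15 and 0.39 ± 0.17 (SE) and adjusted p values from 0.331 to 0.364 in edgeR. *SMP1*, annotated as a factor that interacts with Prp18 of the second step, overlapped, with a log2 fold change of 0.19 ± 0.18 (SE).

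Sm genes were heterogeneous. Of the 13, 9 had a log2 fold change above 0 (46.1% of all genes). Without overlap, 4 were higher (10.8% of all genes) and none was lower (10.2%). AT3G07590 had the largest log2 fold change of all 50 genes, 0.97 ± 0.31 (SE), but from few reads, at 6.07, 3.21 and 2.95 CPM in Col and 7.801, 9.17 and 7.12 in *brr2a*-2. Col replicate 1 was far above the other Col libraries, and the adjusted p was 0.262 in edgeR. The gene (chr3:2423051-2424594 in TAIR10.1, plus strand) overlaps AT3G02025 on the same strand and AT3G07600 on the opposite strand, so part of its counts may belong to them. The core protein gene *SmD3* had 10.5, 11.1 and 10.3 CPM in Col and 12.6, 14.4 and 15.6 in *brr2a*-2, a log2 fold change of 0.42 ± 0.16 (SE). Its paralog AT1G20580 had 9.24, 16.5 and 18.6 CPM in Col and 20.6, 20.5 and 25.98 in *brr2a*-2, where Col replicate 1 was far below the other Col libraries, and AT2G18740 had 15.9, 15.3 and 13.5 CPM in Col and 20.4, 18.3 and 18.1 in *brr2a*-2.

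The other 9 Sm genes had overlapping libraries and log2 fold changes between -0.25 (AT5G44500) and 0.24 (*smB*). *RUXF*, for the F subunit of the ring, was the most abundant of all 50 genes per length, with 64.7 ± 18.6 CPM per kb of exon in Col and 62.8 ± 4.998 in *brr2a*-2 (SD, n = 3). Its libraries read 29.99, 40.2 and 53.7 CPM in Col and 43.7, 38.8 and 37.7 in *brr2a*-2, and *SNRNP-G*, for the G subunit, read 22.3, 25.4 and 41.04 CPM in Col and 30.9, 24.96 and 34.9 in *brr2a*-2. In both, Col replicate 3 was the highest of the 6 libraries and Col replicate 1 the lowest, so the range within Col was wider than that between the genotypes. The remaining log2 fold changes were 0.11 for AT2G47640, 0.03 for AT3G62840, 0.02 for AT4G02840, -0.004 for AT3G11500 and -0.06 for AT4G30330.

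LSm genes were nearly level between the genotypes. Of the 11, 6 were above 0 (46.1% of all genes), and the median was 0.01. An unadjusted p under 0.05 in edgeR was found for 0 (6.93% of all genes higher, 7.47% lower). An adjusted p under 0.05 in DESeq2 was also found for 0 (1.78% and 1.20%). *LSM3B* was the only one that was higher without overlap (8.85, 7.87 and 8.55 CPM in Col and 9.56, 9.12 and 12.1 in *brr2a*-2), and *LSM8*, which marks the nuclear ring on U6, the only one that was lower without overlap (12.1, 11.03 and 10.9 CPM in Col and 9.51, 9.36 and 10.9 in *brr2a*-2). The *LSM8* libraries numbered 3 nearly met, and its log2 fold change was -0.19 ± 0.16 (SE). *LSM1A* and *LSM1B*, for the subunit that marks the cytoplasmic ring, had log2 fold changes of -0.22 ± 0.20 and 0.01 ± 0.16 (SE). *LSM3A* was the most abundant LSm transcript per length, with 34.02 ± 11.1 CPM per kb of exon in Col and 28.3 ± 2.19 in *brr2a*-2 (SD, n = 3), and read 23.1, 17.3 and 33.1 CPM in Col and 21.6, 20.9 and 18.6 in *brr2a*-2, where only Col replicates 1 and 3 were above all mutant libraries. *LSM4* read 21.2, 25.6 and 46.1 CPM in Col and 32.1, 24.5 and 34.4 in *brr2a*-2, again with Col replicate 3 highest. The other LSm genes had log2 fold changes of 0.13 (*LSM2*), 0.09 (*SAD1*, which encodes LSM5), -0.02 (*LSM6A*), 0.01 (*LSM6B*) and 0.21 (*LSM7*).

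Transcript length differed between these classes and moved with the fold change in all genes. All 11 LSm genes and 11 of the 13 Sm genes had less than 1 kb of exon in the first isoform. All genes of U1, U2, the NTC and the helicase group had more. Over all genes tested, the median log2 fold change was -0.13 under 1 kb, -0.07 from 1 to 2 kb, 0.00 from 2 to 3 kb and 0.07 at 3 kb and over. The members of these bins had medians of 0.03, 0.28, 0.37 and 0.34, each above the median of its bin. At 1 kb and over, 26 of 28 members were above 0 (47.2% of all genes of that length) and 18 were higher without overlap (11.5%). Under 1 kb, 14 of 22 members were above 0 (37.0%) and 5 were higher without overlap (5.71%). What part length had in the difference between the classes was not tested.

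**Figure D3:**
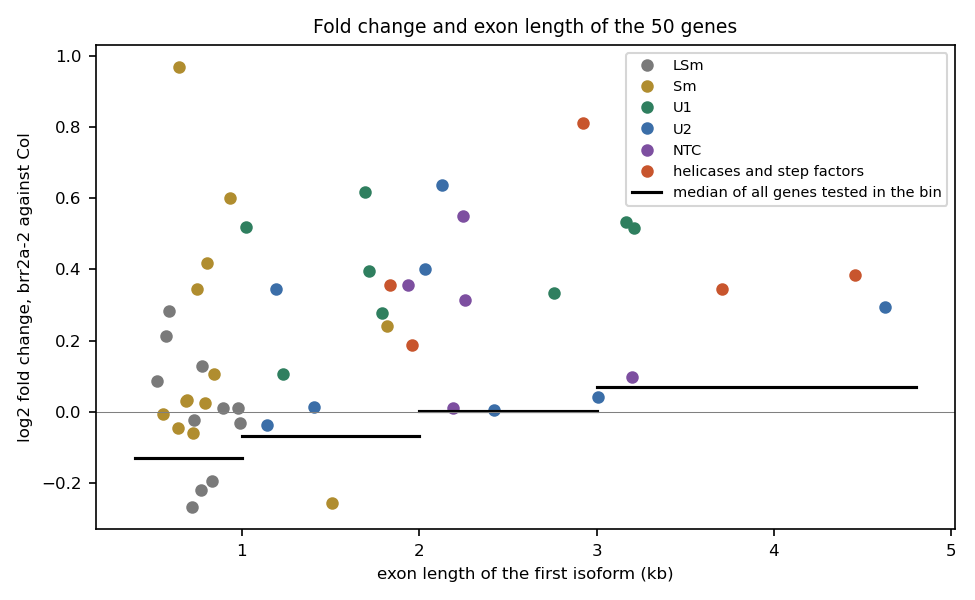
Log2 fold change (y axis) against the exon length of the first isoform in kb (x axis), 1 point per gene, coloured by class. Black lines are the medians of all genes tested in the 4 length bins, from -0.13 under 1 kb to 0.07 at 3 kb and over.

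Many core subunits are encoded by 2 paralogs, and the balance within 14 such pairs was compared as the share of the first gene in the summed level per kb of exon. Shares did not overlap between the genotypes in 5 pairs. How often this happens in other pairs of genes was not computed. For levels of single genes, a different measure, 10.8% of all genes tested were higher and 10.2% lower without overlap. AT3G07590 held 40.5, 26.1 and 28.6% in Col and 48.5, 51.5 and 44.5% in *brr2a*-2 of its pair with AT4G02840, a difference of 16.4 percentage points with an exact permutation p of 0.1. *MAC3A* held 32.96, 29.03 and 24.5% in Col and 21.8, 23.5 and 20.02% in *brr2a*-2, so that the balance lay further towards *MAC3B* in the mutant. For U2AF, *ATU2AF65A* held 63.2, 67.2 and 67.2% in Col and 62.6, 62.7 and 60.9% in *brr2a*-2, with Col replicate 1 close to the mutant libraries. *UNE6* held 55.5, 56.4 and 51.98% in Col and 49.8, 51.9 and 49.9% in *brr2a*-2 of its pair with AT5G17440. AT5G44500 held 14.8, 15.5 and 15.96% in Col and 10.7, 11.1 and 12.5% in *brr2a*-2 of its pair with *smB*. AT3G07590, AT4G02840, *UNE6* and AT5G44500 overlap other annotated genes, so part of their counts may belong to those. The smallest p that 3 against 3 libraries allow is 0.1 (two-sided exact permutation test), so no pair could pass, and the adjusted p over the 14 pairs was 0.28 for these 5.

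The other 9 pairs overlapped. *PRP40A* and *PRP40B* kept nearly the same ratio in all 6 libraries, with *PRP40A* at 45.8, 45.6 and 44.9% in Col and 44.7, 45.4 and 45.4% in *brr2a*-2, even though both were higher in the mutant. *ATU2AF35A* held 68.4, 68.6 and 72.6% in Col and 70.2, 68.3 and 72.6% in *brr2a*-2 of its pair. Coding sequences of the pairs were 57.1% to 89.4% identical, and the longest stretch of identical bases was 14 to 50. The reads as sequenced were longer than any of these stretches. Whether reads were split or lost between paralogs was not tested.

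**Figure D4:**
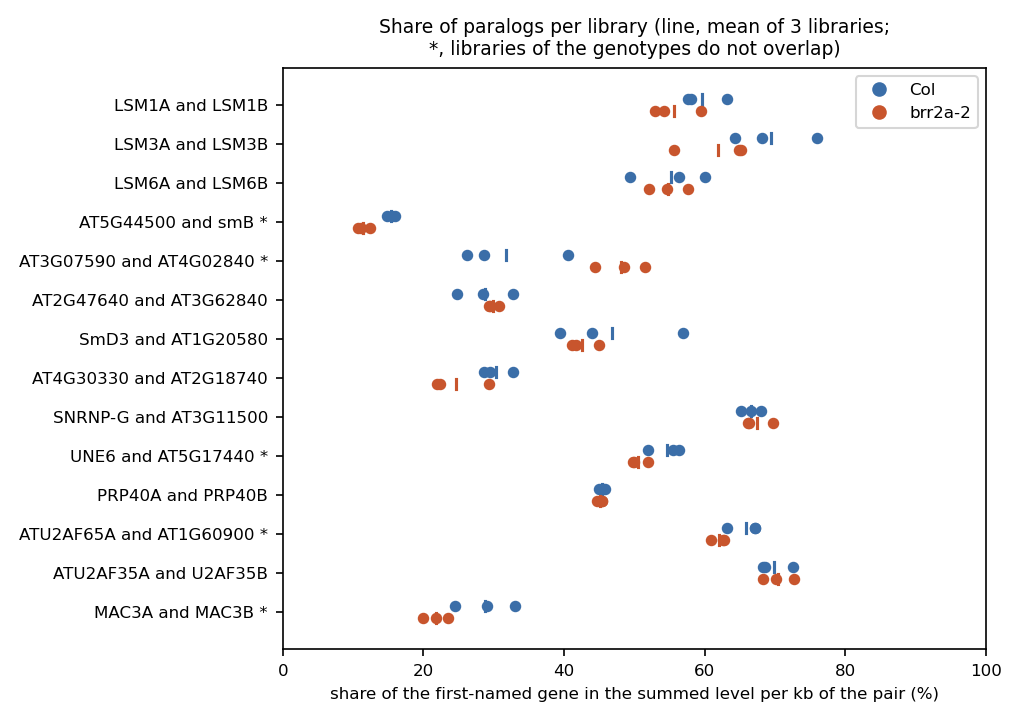
Share of the first-named gene in the level per kb of exon of its pair (x axis, %) for the 14 pairs (y axis), 1 point per library and a line at the mean of 3. Stars mark the 5 pairs whose libraries do not overlap between the genotypes.

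A further list of 31 genes for other U2 proteins, NTC proteins and helicases was counted beside the 50. Of these, 26 had a log2 fold change above 0, with a median of 0.22. In edgeR 0 were called (0% of all genes), 7 had an unadjusted p under 0.05 and a higher level (6.93% of all genes), 0 had a lower one (7.47%), and 10 were higher without overlap (10.8%). With DESeq2, 4 had an adjusted p under 0.05 at any fold (1.78% of all genes higher, 1.20% lower) and 0 also a 2-fold change. They were AT1G14640 and *ATO* of the U2 list and the helicase genes AT3G62310 and AT1G20920, named here after their values were seen, and all 4 were higher in *brr2a*-2.

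Upstream regions of the 50 genes were searched for 2 short elements that are common before plant genes of RNA and protein synthesis. Site II (TGGGCC or TGGGCT, either strand) was found in the 250 bases before the annotated start of 24 of the 50 genes (48.0%), in 14 of the 26 genes outside the LSm and Sm families (53.8%) and in 10 of the 24 within (41.7%), against 22.8% of all genes tested. The telo box (AAACCCTA, either strand) was found in 4 of the 50, against 3.57% of all genes tested. The elements do not overlap in sequence, and a match is no evidence of binding. The upstream sequences of AT1G60900 and *RDM16*, the genes with the smallest p, are shown from the RefSeq assembly TAIR10.1 with site II matches in capitals. AT1G60900 has 2 matches and *RDM16* none.
AT1G60900 upstream, chr1:22423644-22423893, plus strand: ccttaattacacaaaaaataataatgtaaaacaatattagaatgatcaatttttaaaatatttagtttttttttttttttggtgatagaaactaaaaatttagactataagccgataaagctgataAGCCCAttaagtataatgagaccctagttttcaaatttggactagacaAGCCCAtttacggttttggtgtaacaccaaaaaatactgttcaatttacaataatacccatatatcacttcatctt
RDM16 upstream, chr1:9778601-9778850, plus strand: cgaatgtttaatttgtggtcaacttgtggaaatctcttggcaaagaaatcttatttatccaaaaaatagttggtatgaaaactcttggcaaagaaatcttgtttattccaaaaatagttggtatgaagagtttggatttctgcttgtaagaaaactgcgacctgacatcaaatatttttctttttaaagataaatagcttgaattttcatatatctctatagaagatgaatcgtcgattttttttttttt

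Intron reads of the same genes were examined next, since BRR2a acts in splicing and spliceosome transcripts are themselves spliced. Whether such reads came from retained introns was not tested. Intron names of genes on chromosome 3 did not follow their genes in the deposited table, and the 8 member genes there were left out. The other 42 genes had 283 introns in 41 genes, with a median of 24 counts over all 6 libraries, and 58 introns of 32 genes passed the filter. After correction for the fold change of the gene, 0 of the 58 were called in edgeR, against 0.0362% of all introns higher and 0% lower. At an unadjusted p under 0.05, 1 was higher and 5 were lower in *brr2a*-2, against 4.11% and 5.83% of all introns. DESeq2 called 0, but it gave no adjusted p to many of the 58, with intron 10 of AT1G60900 among these. Of all introns with an adjusted p, DESeq2 called 0.207% higher and 0.229% lower. The median log2 fold change was -0.19 for the member introns and -0.11 for all introns. These values are relative to the intron total of each library, which as a percentage of the gene counts was 3.57, 2.76 and 2.88% in Col and 4.505, 4.25 and 3.96% in *brr2a*-2, without overlap. With library sizes from the gene counts, the median of all introns shifted by 0.62 to 0.51 and that of the member introns to 0.42, with 7 higher (21.1% of all introns) and 1 lower (0.427%) at an unadjusted p under 0.05. In this scaling 0 of the 58 were called, against 2.79% of all introns higher and 0.00724% lower.

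Per gene count, 14 of the 58 introns were higher in *brr2a*-2 without overlap, against 32.2% of all introns, 3 were lower, against 1.14%, and 41 overlapped. Among the 10 introns with the smallest p, which are described here, 2 were higher and 3 lower without overlap, and none passed the test. Intron 10 of AT1G60900, numbered along the chromosome, is 68 bp long and lies within the coding region. It had 6, 6 and 4 counts in Col against 26, 23 and 15 in *brr2a*-2. Per 10000 counts of the gene this was 38.7, 73.9 and 44.2 in Col and 167, 157 and 132 in *brr2a*-2, with no overlap, and the corrected log2 fold change was 0.99 ± 0.44 (SE) with an adjusted p of 0.388 in edgeR. Intron numbers of minus-strand genes such as *LSM3A* were inferred from a trend of more counts in longer introns. Numbered along the chromosome, *LSM3A* itself does not follow that trend, with 300 counts in intron 2 of 252 bp and 110 in intron 1 of 322 bp. By this numbering, intron 1 of *LSM3A* is the second of the transcript and lies within the coding region. It had 15, 8 and 15 counts in Col against 27, 22 and 23 in *brr2a*-2, or 196, 216 and 239 in Col and 577, 509 and 689 in *brr2a*-2 per 10000 gene counts, again with no overlap, and a corrected log2 fold change of 0.82 ± 0.40 (SE) with an adjusted p of 0.432 in edgeR. With library sizes from the gene counts the log2 fold changes were 1.60 and 1.43, with adjusted p values of 0.0572 and 0.0668 in edgeR.

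The 3 lower ones were in *RDM16*, *PRP39* and AT1G20580. Intron 5 of *RDM16* had 39, 26 and 25 counts in Col against 25, 24 and 24 in *brr2a*-2, or 354, 375 and 436 in Col and 186, 194 and 288 in *brr2a*-2 per 10000 gene counts, while the gene itself was higher. The corrected log2 fold change was -1.44 ± 0.36 (SE) with an adjusted p of 0.135 in edgeR. The deposited table has 5 introns for *RDM16* and the annotation 6, so its position is not given here. Intron 6 of *PRP39*, 462 bp long, had 71, 33 and 39 counts in Col against 42, 22 and 25 in *brr2a*-2, or 319, 255 and 371 in Col and 253, 134 and 186 in *brr2a*-2 per 10000 gene counts. Intron 1 of AT1G20580, 641 bp long, had 18, 15 and 23 counts in Col against 12, 11 and 18 in *brr2a*-2, or 588, 423 and 653 in Col and 268, 259 and 385 in *brr2a*-2 per 10000 gene counts. Their corrected log2 fold changes were -1.34 ± 0.37 and -1.41 ± 0.45 (SE), with adjusted p values of 0.172 and 0.236 in edgeR. In all 3, the correction for the gene fold change added to the difference, and without it the log2 fold changes were -0.63, -1.01 and -0.82. With the correction and with library sizes from the gene counts they were -0.83, -0.72 and -0.81, with adjusted p values of 0.181, 0.271 and 0.286 in edgeR.

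The splice sites of these introns are the letters that U1 and U2AF read, and they are shown from TAIR10.1 for the 4 introns with a position, with the GT at the 5′ end and the AG at the 3′ end of the intron in capitals. Windows hold 10 exon bases and 40 intron bases, and the 68 bp intron is shown whole. The position of the *LSM3A* intron rests on the inferred numbering.
AT1G60900 intron 10, chr1:22427211-22427278, plus strand: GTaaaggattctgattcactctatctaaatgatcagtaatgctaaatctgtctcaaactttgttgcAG
LSM3A 5′ splice site, chr1:7420352-7420401, minus strand: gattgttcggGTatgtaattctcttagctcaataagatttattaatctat
LSM3A 3′ splice site, chr1:7420060-7420109, minus strand: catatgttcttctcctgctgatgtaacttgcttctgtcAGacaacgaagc
PRP39 5′ splice site, chr1:1054191-1054240, plus strand: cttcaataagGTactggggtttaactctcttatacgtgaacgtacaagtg
PRP39 3′ splice site, chr1:1054623-1054672, plus strand: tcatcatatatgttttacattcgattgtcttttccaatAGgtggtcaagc
AT1G20580 5′ splice site, chr1:7129128-7129177, plus strand: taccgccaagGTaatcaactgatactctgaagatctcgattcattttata
AT1G20580 3′ splice site, chr1:7129739-7129788, plus strand: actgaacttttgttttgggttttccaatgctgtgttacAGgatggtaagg
None of the 4 begins with the run GTAAGT, which pairs fully with U1 RNA. That run opened 29 of the 283 annotated introns of the member genes (10.2%) and 9.37% of all introns of tested genes.

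**Figure D5:**
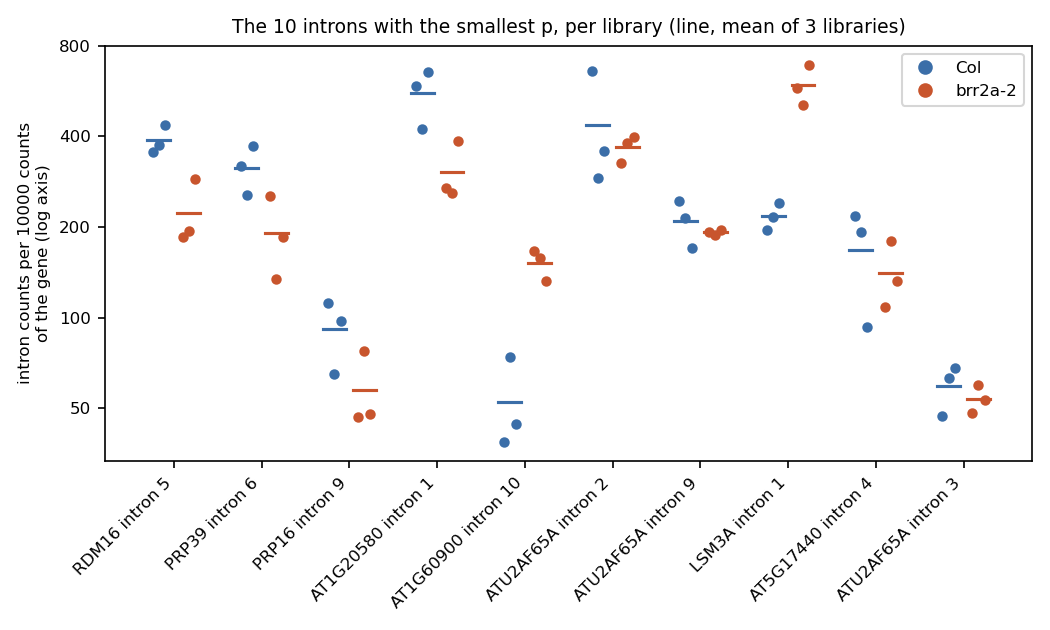
Intron counts per 10000 counts of the gene (y axis, log axis) for the 10 member introns with the smallest unadjusted p (x axis, numbered along the chromosome), 1 point per library and a line at the mean of 3. The *brr2a*-2 libraries lay above all Col libraries for AT1G60900 intron 10 and *LSM3A* intron 1, and below them for *RDM16* intron 5, *PRP39* intron 6 and AT1G20580 intron 1.

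The other 5 of the 10 introns with the smallest p overlapped between the genotypes. They were intron 9 of *PRP16*, introns 2, 3 and 9 of *ATU2AF65A* and intron 4 of AT5G17440, all with negative corrected log2 fold changes, from -1.32 to -0.73. With library sizes from the gene counts, *PRP16* intron 9 was at -0.72 and AT5G17440 intron 4 at -0.24. Introns 2, 3 and 9 of *ATU2AF65A* were then at -0.25, -0.12 and -0.11. In *ATU2AF65A* intron 2, Col replicate 1 alone had 657 counts per 10000 gene counts, against 289.7 to 397 in the other 5 libraries.

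Summed over all introns of a gene, 39 of the 42 genes could be tested. In edgeR 0 were called, against 0.0318% of all genes higher and 0.0212% lower. DESeq2 also called 0, against 0.305% and 0.214%, but it gave no adjusted p to several of the 39, *U2AF35B* among these. At an unadjusted p under 0.05, 0 were higher (3.38% of all genes) and 3 were lower (3.61%), namely *RDM16* (-1.01), AT1G20580 (-1.02) and *PRP39* (-0.56 in corrected log2 fold change). *PRP16* and *ATU2AF65A* followed at -0.43 and -0.41. The median was -0.10 against -0.05 for all genes, or 0.44 against 0.50 with library sizes from the gene counts. In that scaling the counts turned, with 7 higher (27.6% of all genes) and 0 lower (0.233%) at an unadjusted p under 0.05 and 0 called (3.27% and 0.0212%).

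Intron reads can also be read against exon reads of the same gene, with no scaling between libraries. The read density of introns, as a percentage of that of exons, was higher in *brr2a*-2 in 34 of 37 genes that could be compared, with a median ratio of 1.36. In all 8887 genes the median ratio was 1.43, and 92.3% were above 1. It was higher without overlap in 15 of the 37 genes, against 45.4% of all genes, and lower without overlap in 0, against 0.371%. The count was 24 without Col replicate 1, but a count without overlap tends to stay or rise when a library is removed. Over the members the median density was 6.83% to 8.10% in Col and 9.65% to 10.2% in *brr2a*-2, below the medians of all genes (13.3% to 15.3% and 19.7% to 21.4%).

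*LSM3A* had one of the larger ratios, with 12.3, 11.5 and 13.2% in Col and 24.1, 22.4 and 25.5% in *brr2a*-2, and AT4G02840 had 3.53, 6.48 and 6.296% in Col and 10.7, 9.53 and 11.3% in *brr2a*-2. *U2AF35B*, which has a single intron, read 23.8, 13.7 and 5.83% in Col and 30.1, 35.4 and 30.7% in *brr2a*-2, and *RUXF* read 2.01, 1.98 and 1.89% in Col and 3.32, 3.11 and 2.53% in *brr2a*-2. In these 4 genes the libraries did not overlap. *PRP39* had nearly equal values in both genotypes, with 10.4, 7.21 and 9.36% in Col and 10.3, 7.304 and 9.65% in *brr2a*-2, and AT1G20580 was one of 3 genes with a lower mean in the mutant, with 6.44, 4.23 and 7.201% in Col and 3.99, 4.42 and 4.22% in *brr2a*-2 and overlap. By class, the median ratio was 1.37 in LSm genes, 1.52 in Sm genes, 1.14 in U1 genes, 1.27 in U2 genes, 1.47 in NTC genes and 1.56 in the helicase group.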

How the data were processed

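Per the labels and the study's methods, the authors trimmed paired-end reads with trimmomatic v0.32, aligned them to TAIR10 with tophat and deposited raw HTseq counts per gene and per intron of the first isoform, without normalization. Strand setting and intron numbering are not given in the sources used here. The study's RUVseq correction is not part of these counts. Within minus-strand genes, intron counts followed intron length when numbers ran along the chromosome (r = 0.41) and not along the transcript (r = -0.02), so the former was used. Summed intron counts and gene counts correlated with Spearman's rho of 0.86 to 0.88 on chromosomes 1, 2, 4 and 5 and 0.32 on chromosome 3.

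Counts were fitted over the whole tables in R 4.3.3 with edgeR 4.0.16 (filterByExpr, minimum count 10; TMM; quasi-likelihood F-test; Benjamini-Hochberg adjustment), with calls at an adjusted p under 0.05 and an absolute log2 fold change of 1 or more. CPM are counts per 1000000 of TMM-scaled library size. The standard error (SE) of a log2 fold change is its absolute value divided by the square root of the F statistic of the test. For introns the gene's log2 fold change (prior count 2) entered the offset of the mutant libraries. It was taken as known, so its own error is not part of the standard errors and p values of the introns. Simulated counts were used to check the scripts. Alternatives were DESeq2 1.42.0, its size factors, no filter, nuclear genes only, 1 RUVg factor with 5000 control genes, the replicate number as a block, library sizes from the gene table, no gene correction, and each library left out in turn. Alternatives for counts above 0, counts without overlap and intron density were added after the data were seen. Summaries used Python 3.11.15, pandas 2.3.3, numpy 2.4.6, scipy 1.17.1 and matplotlib 3.10.9.

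The 50 members, the lists and the rules were chosen with earlier results of these data known. Genes named by rule are the 12 with the smallest p and the most abundant per length in each class. Both genes of any pair whose shares do not overlap were also named by rule. Named introns are the 10 with the smallest p and the 5 genes with the smallest p on summed introns. Other members are mentioned to account for each of the 50. Many of these are given with CPM per library though no rule chose them, and some genes of the rule, such as *smB*, are given without CPM. Symbols, positions and lengths are from RefSeq on TAIR10.1, which held all 50 identifiers; 22 members overlap another annotated gene. Proteins are not shown.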

Additional observations from a re-analysis of the deposited data

How the results depend on the processing

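No alternative called any of the 50 genes, their introns or their summed introns; DESeq2 gave 2 genes an adjusted p under 0.05 at any fold in place of 0. With 1 library left out, between 6 and 13 genes had an unadjusted p under 0.05 in edgeR and a higher level. The median log2 fold change lay between 0.15 and 0.28, and 33 to 41 genes were above 0. The same runs gave 23 to 27 genes higher without overlap, 5 to 7 pairs without overlap and 16 to 24 genes with higher intron density without overlap. Counts without overlap tend to stay or rise as libraries are removed, so these ranges do not show how stable they are. The replicate numbers were not taken to pair libraries, since same-numbered libraries deviated together with r of 0.04, 0.19 and 0.42 and not every library correlated best with its own number. With the replicate number as a block, 0 genes were called, 10 in place of 11 had an unadjusted p under 0.05 and a higher level, the median was 0.19, and log2 fold changes near 0 changed sign for *LSM4* (0.035), *LSM6B* (-0.0084) and AT3G11500 (0.022). Other reversals were those of *LSM4* (0.076), *RUXF* (0.025) and AT3G11500 (0.045) with 1 RUVg factor, of AT3G11500 with DESeq2 (0.0037), and of the summed introns of *PRP16* (0.13) and *ATU2AF65A* (0.13) with library sizes from the gene counts. Leaving out single libraries turned the sign of genes near 0, with ranges of -0.037 to 0.074 for *LSM1B*, -0.14 to 0.36 for *SNRNP-G*, -0.19 to 0.37 for *ATU2AF35A*, -0.16 to 0.23 for *U2AF35B*, -0.049 to 0.43 for *CDC5*, -0.16 to 0.18 for *LSM6B*, -0.033 to 0.091 for *MAC3A*, -0.46 to 0.026 for *LSM3A*, -0.24 to 0.39 for *LSM4*, -0.056 to 0.25 for *SAD1*, -0.19 to 0.081 for *LSM6A*, -0.050 to 0.078 for AT4G02840, -0.23 to 0.20 for *RUXF*, -0.14 to 0.26 for AT3G11500, -0.040 to 0.13 for *AtSF1*, -0.12 to 0.032 for *U2B''*, -0.22 to 0.043 for AT4G30330 and -0.056 to 0.12 for AT3G62840. The cause of these reversals was not tested.

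With 3 libraries per genotype, 0 of 19121 genes passed adjustment in edgeR, whereas DESeq2 gave 354 genes higher and 239 lower an adjusted p under 0.05. Introns were limited by depth: 55 of the 283 had fewer than 10 counts over all libraries.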

Other observations

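Libraries numbered 3 stood out by transcripts of seed storage proteins in both genotypes. *CRA1* had 0.755, 0.186 and 12.6 CPM in Col and 4.25, 3.28 and 33.7 in *brr2a*-2, and *CRU3* had 0.755, 0.279 and 26.0 CPM in Col and 9.51, 6.32 and 67.4 in *brr2a*-2. *CRU2* stayed at or below 0.193 CPM in all libraries. Col replicate 3 was also the highest Col library for 22 of the 50 spliceosome genes and the lowest for 19. *LSM4*, *RUXF*, *SNRNP-G*, *ATU2AF35A* and *CDC5* had their highest value of all 6 libraries there. What part seed transcripts had in this was not tested.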
